A study of Mus musculus with 4 samples.

Results

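A set of 10 genes of the AP-1 and immediate early response, chosen by their symbols in the gene table, were followed through the cell types of the mouse distal jejunum at 18.5 h after intestinal ischemia–reperfusion (I/R) injury. The 10 genes were Fos, Fosb, Fosl2, Jun, Junb, Jund, Atf3, Egr1, Ier2 and Btg2, out of 32286 features counted, and each had counts in all 4 mice. Single-cell RNA was captured from 4 adult male mice, 1 library per mouse. The Control group held 2 mice (Foxc1fl/fl;Foxc2fl/fl, no Cre) and the EC-Foxc-DKO group held 2 mice (Cdh5-CreERT2;Foxc1fl/fl;Foxc2fl/fl, both Foxc genes deleted). All 4 mice carried the floxed alleles, received tamoxifen by gavage, and underwent clamping of the superior mesenteric artery followed by reperfusion, so every level below is a level in injured tissue and none is from uninjured gut. Cdh5-CreERT2 is driven by an endothelial promoter, which places the deletion in blood and lymphatic endothelial cells. By this design every other cell type in the mutant mice is meant to keep its Foxc genes, which was not tested here. Cells were released by enzymatic digestion at warm temperature before capture. The levels below are thus those of digested cells, and the part of the digestion in them was not tested.

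Immediate early genes are transcribed within minutes of a stimulus, because the proteins that switch them on are already present in the cell and need only be phosphorylated. The mitogen-activated protein kinases act on serum response factor with its ternary complex partners at one set of sites and on CREB at the cAMP response element (CRE), and their messages are short-lived. The Fos and Jun proteins then pair to form AP-1, a leucine zipper dimer that binds DNA. Atf3 is a stress-induced member of the related ATF family, Egr1 is a zinc finger factor, Ier2 is a small nuclear protein, and Btg2 restrains cell division and promotes the decay of messages. In the gut these genes are known to respond to injury, to growth factors and to the handling of tissue.

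The 4 libraries held between 15557181 and 72046346 unique molecular identifiers (UMIs, 1 per captured message), and 5615 of 22679 barcodes had no more than 10% of their UMIs on mitochondrial genes and were kept. The kept cells numbered 1446 in Control 1, 348 in Control 2, 2742 in EC-Foxc-DKO 1 and 1079 in EC-Foxc-DKO 2. Control 2 stood apart, with a median of 54.0% mitochondrial UMIs over all its barcodes against 15% to 25.8% in the other libraries. Between libraries, 51 barcodes were shared, and 24 kept cells carried one of them. Foxc2 had no UMI in any kept cell. Foxc1 had 1 and 5 UMIs in the blood endothelial cells (BECs) of Control 1 and Control 2 against 1 and 0 in those of EC-Foxc-DKO 1 and EC-Foxc-DKO 2, and Cre had 0, 0, 3 and 2, so Cre was seen only in the mice labelled as carrying it and Foxc1 was too low to test. Whether the 3′ tags lie within the deleted part of the Foxc genes is not given in the sources used here. Cells were clustered without the 10 genes, so that none of them helped to form a cell type, and 19 types were named from their markers (5031 cells), so that a type name below stands for cells with the markers of that type. The other 584 cells, in 4 clusters led by Sprr2a3, by Fabp2, by Pclaf and by Slpi, were left without a type. In 8 types every mouse had at least 10 cells, and the tests below were run in these. All 10 BEC markers were present in the BECs of every mouse, with summed levels from 20744 to 23939 CPM (a gene's UMIs per 1000000 UMIs of that cell type in that mouse). Enteric glia had all 7 of their markers in every mouse and macrophages all 9.

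Each gene lies at a single locus in GRCm38 by GENCODE annotation. Fos is on chromosome 12 (85473890 to 85477273, plus strand), Fosb on chromosome 7 (19302696 to 19310051, minus), Fosl2 on chromosome 5 (32135801 to 32157842, plus) and Jun on chromosome 4 (95049034 to 95052222, minus). Junb (84974484 to 84978718, minus), Ier2 (84661331 to 84662852, minus) and Jund (70698949 to 70700616, plus) are all on chromosome 8. Atf3 (191170296 to 191218039, minus) and Btg2 (134075170 to 134079120, minus) are on chromosome 1. A window was read from the RefSeq promoter table (GRCm38.p6) for 8 of the 10 genes. The 250 bases before the start are shown for 4 of them, 5′ to 3′ on the gene's strand, because they carry the CRE letters through which CREB and ATF proteins are known to bind. Capitals mark the full CRE (TGACGTCA), its short form (TGACG, or CGTCA on the other strand) and the TATA letters (TATAAA).
Fos, chr12:85473640-85473889, plus: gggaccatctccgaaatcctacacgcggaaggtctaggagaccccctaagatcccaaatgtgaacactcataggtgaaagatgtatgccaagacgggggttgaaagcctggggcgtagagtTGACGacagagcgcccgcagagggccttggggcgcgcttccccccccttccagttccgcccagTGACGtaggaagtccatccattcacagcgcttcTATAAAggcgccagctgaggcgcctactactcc
Fosb, chr7:19310046-19310295, minus: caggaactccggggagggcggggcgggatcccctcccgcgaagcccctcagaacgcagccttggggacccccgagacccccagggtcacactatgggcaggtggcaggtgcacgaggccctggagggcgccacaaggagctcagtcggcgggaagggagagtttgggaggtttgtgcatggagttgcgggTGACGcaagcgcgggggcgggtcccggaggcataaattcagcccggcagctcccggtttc
Junb, chr8:84978749-84978998, minus: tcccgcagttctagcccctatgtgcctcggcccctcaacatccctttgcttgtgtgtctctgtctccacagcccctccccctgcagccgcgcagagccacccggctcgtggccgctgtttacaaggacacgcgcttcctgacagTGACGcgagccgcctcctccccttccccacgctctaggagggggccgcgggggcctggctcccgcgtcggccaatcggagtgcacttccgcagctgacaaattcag
Btg2, chr1:134079156-134079405, minus: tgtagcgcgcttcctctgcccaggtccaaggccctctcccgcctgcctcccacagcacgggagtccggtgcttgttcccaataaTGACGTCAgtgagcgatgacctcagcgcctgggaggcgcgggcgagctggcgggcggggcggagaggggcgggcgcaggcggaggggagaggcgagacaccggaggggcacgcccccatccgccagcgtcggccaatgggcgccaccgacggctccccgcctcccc

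Counting back from the base before the start as -1, Fos had the short form at -129 to -125 and at -66 to -62, followed by the TATA letters at -33 to -28. Fosb had it at -60 to -56 and Junb at -106 to -102. Btg2 held the full CRE at -166 to -159, which contains the short form on each strand, and Atf3 had the short form at -7 to -3. Both strands were searched. Among 32851 promoter windows of the same length, 1.55% held the full CRE, 17.8% held the short form and 12.4% held the TATA letters. The AP-1 letters TGANTCA (6.75% of windows), the EGR1 letters GCGTGGGCG (0.536%) and the CArG box of serum response factor (1.47%) had no match in the 8 windows. The windows are short and follow the promoter table, whose starts can differ from the GENCODE starts above. The Jund window ended at 70697738, before the GENCODE start of 70698949. Those of Fosl2 and Atf3 lay within the printed genes. No window was read for Ier2, and windows on chromosome 18, which holds Egr1, were left out of the search. The absence holds for these windows only. A match of letters is a description of the sequence and does not show that a factor binds there.

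The levels of the 10 genes differed between cell types, in a direction that depended on the type. Each type was compared with the mean of the other 7 in 1 fit over all types and mice (edgeR's quasi-likelihood test on UMIs summed per mouse and type, with mouse as a covariate, Benjamini-Hochberg over 8701 genes). By construction the differences of a gene cancel over the types, so higher values in some types bring lower values in others. The comparisons of a gene are thus not separate results. Of the 80 comparisons of a gene in a type, 50 passed an adjusted p of 0.05, beside 44.0% of all comparisons of all genes. In macrophages 9 of the 10 genes were higher and none lower, and in enteric glia 7 were higher and none lower, whereas in crypt cells 7 were lower and none higher. Over all genes, 41.0% were called in macrophages (29.8% higher), 31.1% in enteric glia (19.6% higher) and 61.2% in crypt cells (33.2% higher and 28% lower). The median log2 difference of the 10 genes was 1.70 in macrophages, 1.5 in enteric glia and -1.32 in crypt cells, beside medians over all genes of 0.10, -0.10 and -0.08. Scaling the libraries by RLE size factors in place of TMM moved the median of all genes by 0.26 in enteric glia, 0.20 in BECs, -0.17 in follicular B cells and -0.13 in macrophages. It also moved the higher share of all calls from 63.1% to 77.7% in enteric glia, from 59.3% to 70.9% in BECs, from 61.0% to 50.0% in follicular B cells and from 72.6% to 61.6% in macrophages. Under RLE scaling 53 of the 80 comparisons passed, and 49 of the 50 calls were made again in the same direction.

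**Figure D1:**
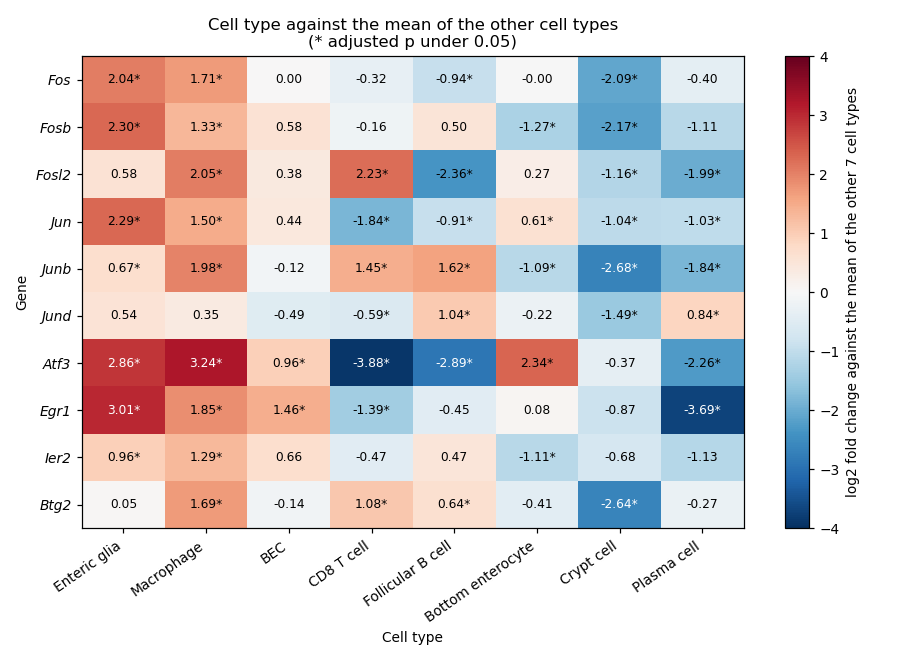
The map gives the log2 difference of each gene (vertical axis) in each of 8 cell types (horizontal axis) from the mean of the other 7 types, fitted by edgeR over 4 mice; a star marks an adjusted p under 0.05. Enteric glia and macrophages hold the highest values, up to 3.24 for Atf3 in macrophages, and crypt cells hold 7 starred values, all below 0.

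Enteric glia, the supporting cells of the gut's own nervous system, had the highest mean of Fos, Fosb, Jun, Atf3 and Egr1 among the 8 types. Fos stood at 4451, 5132, 3783 and 4246 CPM in Control 1, Control 2, EC-Foxc-DKO 1 and EC-Foxc-DKO 2, and Jun at 1937, 2436, 2559 and 1625 CPM in the same order. For Fos, and for its relative Fosb (950.4, 801.9, 660.1 and 965.8 CPM), the lowest glial value lay above the highest value of the next type, the macrophages. Egr1 was 1311, 1453, 1067 and 2560 CPM, and Atf3 was 252.6, 591.4, 349.2 and 843.1 CPM. For these last genes and for Jun the range overlapped that of macrophages, with EC-Foxc-DKO 2 the highest glial value of both Egr1 and Atf3. The differences from the mean of the other types, on the log2 scale, were 3.01 ± 0.33 (SE) for Egr1, which lies on chromosome 18 (34859823 to 34864984, plus strand) (edgeR adjusted p = 1.2e-09), 2.86 ± 0.31 for Atf3 (1.3e-09), 2.30 ± 0.27 for Fosb (1.1e-08), 2.29 ± 0.24 for Jun (9.4e-10) and 2.04 ± 0.26 for Fos (4.9e-08). These 5 calls held under every alternative that was run. Junb (0.67 ± 0.19, adjusted p = 0.0070) and Ier2 (0.96 ± 0.37, 0.045) also passed. The Ier2 call was lost without Control 1 (0.55), without EC-Foxc-DKO 1 (1.05) and without EC-Foxc-DKO 2 (0.84), and both were lost at a mitochondrial limit of 20%, where Junb was 0.26 and Ier2 0.72, and without high doublet scores (0.44 and 0.63). Junb was lost with no filter on low counts too (0.50). Jund, Fosl2 and Btg2 did not pass, at 0.54, 0.58 and 0.05, although Jund passed without EC-Foxc-DKO 2 (0.63, adjusted p = 0.027), with DESeq2 and RLE scaling (0.79 in both), with the 10 genes kept in the clustering (0.59), at a mitochondrial limit of 20% (0.59) and without high doublet scores (0.68). Fosl2 passed with DESeq2 (0.84) and RLE scaling (0.86). The glia held few UMIs of macrophage markers in 3 mice (23.9 to 92.0 CPM summed over 9 markers) and 2396 CPM in Control 2, the mouse with the highest glial Fos. In the 3 mice with few such UMIs Fos was at 3783 CPM or more. The part of the macrophage markers in the result was not tested.

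**Figure D2:**
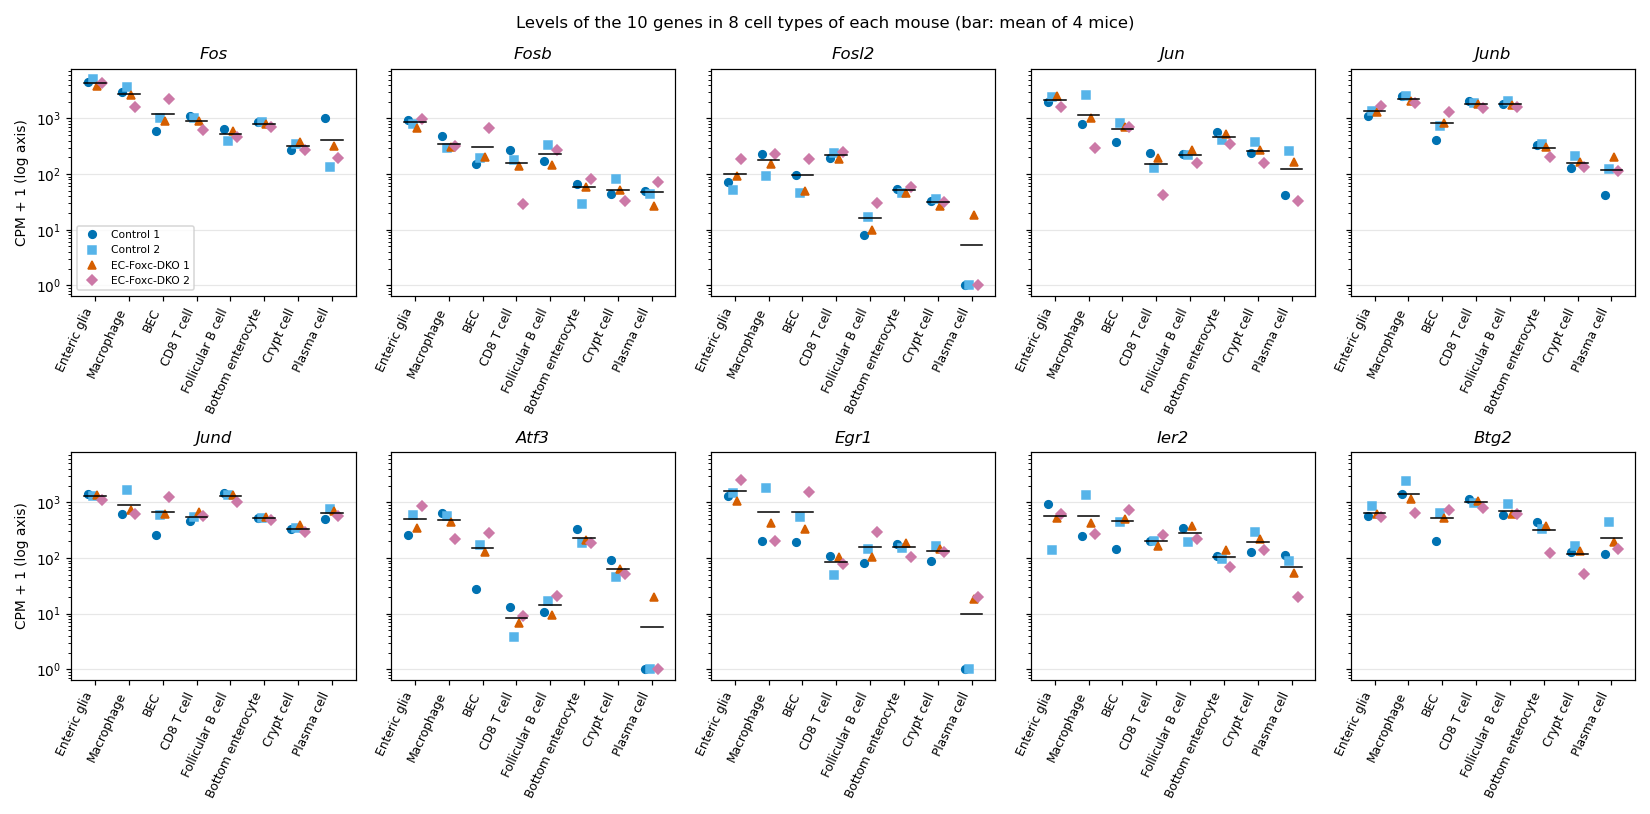
Each panel shows 1 gene, with the level in CPM plus 1 on a log axis for each cell type, a symbol per mouse and a bar at the mean of the 4 mice. Fos separates enteric glia from the other 7 types, Fosb does so except for 1 BEC value (671.2 CPM, EC-Foxc-DKO 2), Junb sits in a high set (macrophages, CD8 T cells, follicular B cells, enteric glia) and a low set of epithelial and plasma cells, and Atf3 spans from above 800 CPM to 0.

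Macrophages, the phagocytes of the gut wall, had the broadest set of calls, with all of the genes except Jund higher. The largest difference was that of Atf3, a repressor of inflammatory genes in these cells, at 3.24 ± 0.25 (adjusted p = 2.5e-13). Its levels were 649.5, 573, 449.3 and 221.7 CPM in Control 1, Control 2, EC-Foxc-DKO 1 and EC-Foxc-DKO 2, so that both control mice lay above both mutant mice. Fosl2 (2.05 ± 0.19), Junb (1.98 ± 0.17), Fos (1.71 ± 0.26), Btg2 (1.69 ± 0.21), Jun (1.5 ± 0.25) and Fosb (1.33 ± 0.26) passed under every alternative. Egr1 (1.85 ± 0.35) and Ier2 (1.29 ± 0.32) did not: without Control 2 they were 0.70 (adjusted p = 0.095) and 0.48 (0.21). Control 2 was far above the other mice for both, at 1821 CPM of Egr1 against 198.7, 415.7 and 199.2, and at 1355 CPM of Ier2 against 248.9, 430.3 and 266.6. Jun ranged over the mice from 296.6 CPM in EC-Foxc-DKO 2 to 2622 CPM in Control 2. Junb varied least, from 1878 to 2532 CPM.

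The macrophages came from 2 clusters, both led by Lyz2, which differed in the levels of the 10 genes. In the cells where Ccl6 and Ccl2 came next, with a median of 6088 to 12455 UMIs per mouse, Fos was 3094, 3859, 2909 and 1674 CPM. In the cells where the complement genes C1qa and C1qb came next, which were shallow (medians of 979 and 985 UMIs), Fos was 67.0 CPM in Control 1 and 993 CPM in EC-Foxc-DKO 1, the mice with at least 10 such cells. Junb was 2639 against 44.6 CPM in Control 1 and 2323 against 528 CPM in EC-Foxc-DKO 1. The Fos and Junb values of the 36 C1qa and C1qb cells of Control 1 rest on a few UMIs. Fosb, Egr1, Ier2 and Btg2 stood there at the same 44.6 CPM as Junb. The resident marker genes C1qa and C1qb were among the top genes of the second cluster, and its depth moved with its low levels. The part of depth in this difference was not tested. The first cluster alone gave the same 9 macrophage calls.

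BECs, the cells that carry the deletion, ranked 3 to 5 of the 8 types by mean level for every gene. Fos was 584.8, 998.6, 910.2 and 2243 CPM in Control 1, Control 2, EC-Foxc-DKO 1 and EC-Foxc-DKO 2, a range that overlapped both macrophages above and CD8 T cells below. Against the mean of the other types only Egr1 (1.46 ± 0.37, adjusted p = 0.0013) and Atf3 (0.96 ± 0.35, 0.023) passed, 2 of 10 where 44.1% of all genes did (26.2% higher). Egr1 was 194.9, 543.9, 330.4 and 1555 CPM and Atf3 was 26.9, 169.4, 128.1 and 280.4 CPM. In both genes EC-Foxc-DKO 2 was the highest and Control 1 the lowest. Without EC-Foxc-DKO 2 neither passed (Egr1 0.84, adjusted p = 0.059; Atf3 0.66, 0.13), and Atf3 also failed without Control 2 (0.84, 0.12) and without high doublet scores (0.49). Under RLE scaling Fosb passed too (0.76, 0.048), and with no filter on low counts Jund did (-0.63, 0.022). At a mitochondrial limit of 20%, which admitted 281 BECs in place of 170, Egr1 was 0.64 and Atf3 0.06, and neither passed, while Junb (-0.61, adjusted p = 0.0068) and Jund (-0.54, 0.040) then did. Without Control 1, Fosb (0.86, adjusted p = 0.045) and Ier2 (1.05, 0.015) passed, and Ier2 also did without Control 2 (0.79, 0.049). Without EC-Foxc-DKO 1 Fosl2 passed (1.71, 0.015) and without EC-Foxc-DKO 2 Jund was lower (-0.93, 0.0025). Fos, Junb and Btg2 lay at 0.00, -0.12 and -0.14, and the sign of each turned under some setting, RLE scaling included for Junb and Btg2.

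In lymphocytes the calls went in both directions. Junb, a Jun protein that partners Batf in lymphocytes, was high in both kinds tested, at 2082, 1884, 1830 and 1548 CPM in CD8 T cells and at 1839, 2048, 1772 and 1582 CPM in follicular B cells of Control 1, Control 2, EC-Foxc-DKO 1 and EC-Foxc-DKO 2. The 2 ranges overlapped almost wholly, and the differences from the other types were 1.45 ± 0.18 (adjusted p = 1.3e-08) and 1.62 ± 0.18 (1.5e-09). Fosl2 separated the 2 kinds. It was 197.0, 238.3, 186.0 and 244.5 CPM in CD8 T cells, the highest mean of the 8 types (log2 difference 2.23 ± 0.20, adjusted p = 1.4e-11), and 7.16, 15.8, 8.77 and 29.5 CPM in follicular B cells (-2.36 ± 0.36, 1.7e-06). No B cell value reached the lowest CD8 T cell value. Btg2, which is known to hold lymphocytes in quiescence, was higher in CD8 T cells (1.08 ± 0.22, adjusted p = 1.5e-04), with 786.4 to 1146 CPM. In follicular B cells Btg2 was at 0.64 (adjusted p = 0.027), a call lost without Control 1 (0.62), EC-Foxc-DKO 1 (0.57) or EC-Foxc-DKO 2 (0.52) and under RLE scaling (0.59). That Btg2 call was also lost with DESeq2 and without high doublet scores. Jund was higher in follicular B cells (1.04 ± 0.21, adjusted p = 7.8e-05) and lower in CD8 T cells (-0.59 ± 0.23, 0.037). The latter call was lost without Control 1 (-0.61), without Control 2 (-0.58) and without EC-Foxc-DKO 1 (-0.73).

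Atf3 and Jun were low in both. Atf3 was at 12.1, 2.84, 5.87 and 8.15 CPM in CD8 T cells and at 9.54, 15.8, 8.54 and 19.7 CPM in follicular B cells of Control 1, Control 2, EC-Foxc-DKO 1 and EC-Foxc-DKO 2. In the smaller libraries these values rest on a few UMIs, and the log2 differences of -3.88 ± 0.54 and -2.89 ± 0.52 lost their calls without EC-Foxc-DKO 1 (-2.82 and -1.93), the mouse with most lymphocytes. Jun was lower by a log2 difference of -1.84 ± 0.34 in CD8 T cells (adjusted p = 2.6e-05), and by -0.91 ± 0.32 in follicular B cells (0.020), the latter failing without EC-Foxc-DKO 1 (-1.11, 0.058). Egr1 was lower in CD8 T cells (-1.39 ± 0.45, 0.011), a call that failed without EC-Foxc-DKO 1 (-1.54, 0.057). Fos was lower in follicular B cells (-0.94 ± 0.34, 0.022) and failed without Control 2 (-0.84, 0.068). The low Fosl2 of follicular B cells likewise lost its call without EC-Foxc-DKO 1 (-1.48). Of all genes, 46.2% were called in CD8 T cells and 44.9% in follicular B cells, where the 10 genes gave 7 calls each, 3 higher and 4 lower. The higher share of all genes was 27.4% in both, and the lower share 18.8% and 17.5%.

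Plasma cells, the antibody-secreting descendants of B cells, had the lowest mean CPM of 7 of the 10 genes among the 8 types. Egr1, Atf3 and Fosl2 were near 0. Egr1 was 0, 0, 17.1 and 19.1 CPM and Atf3 was 0, 0, 19.3 and 0 CPM in Control 1, Control 2, EC-Foxc-DKO 1 and EC-Foxc-DKO 2, and Fosl2 was 0 except for 17.1 CPM in EC-Foxc-DKO 1. A count of 0 allows up to 20.8, 16.4 and 19.1 CPM in Control 1, Control 2 and EC-Foxc-DKO 2 (3 UMIs per library), so in these mice the levels lay at or under what the depth can show. In EC-Foxc-DKO 1 the same limit was 6.43 CPM, and all 3 genes lay above it. Junb was low but measured, at 41.5, 120.1, 201.3 and 114.5 CPM (log2 difference -1.84 ± 0.25, adjusted p = 6.0e-07). Jund, which is known to be expressed steadily rather than induced, was the exception at 505.1, 753.3, 685.3 and 578.8 CPM (0.84 ± 0.22, 0.0046), a call lost without Control 2 (0.69, 0.058). By mean CPM, which leaves out the TMM factors of the fit, plasma cells ranked only 5 of the 8 types for Jund. The printed CPM and the fitted differences of plasma cells are thus on different scales. In all 6 genes were called, 5 of them lower, beside 16.4% of all genes called, 11.8% higher and 4.53% lower. Of the 5, Jun (-1.03) failed without Control 1 (-0.92), EC-Foxc-DKO 1 (-1.16) or EC-Foxc-DKO 2 (-0.84), and Atf3 (-2.26) without Control 2 (-2.05). Fos and Ier2 passed without Control 1 (-1.5 and -1.63) and Fosb without EC-Foxc-DKO 2 (-1.3). Control 1 held 996.3 CPM of Fos against 131.0 to 317.0 CPM in the other mice, from 11 plasma cells with a median of 1532 UMIs.

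In the epithelium 7 of the 10 genes were lower in crypt cells, all but Atf3, Egr1 and Ier2, and most had higher levels toward the villus tip. Crypt cells, which hold the dividing progenitors, had the lowest mean of Fos, Jund and Btg2 among the 8 types. Btg2 was 129.1, 161.3, 130.1 and 50.1 CPM in crypt cells of Control 1, Control 2, EC-Foxc-DKO 1 and EC-Foxc-DKO 2, and Junb was 129.1, 209.9, 166.6 and 135.1 CPM. All 4 mice were below every macrophage, CD8 T cell and follicular B cell value of both genes. The log2 differences were -2.68 ± 0.24 for Junb (adjusted p = 1.6e-11), -2.64 ± 0.30 for Btg2 (2.1e-09), -2.17 ± 0.35 for Fosb (1.6e-06), -2.09 ± 0.36 for Fos (4.9e-06), -1.49 ± 0.25 for Jund (3.0e-06), -1.16 ± 0.25 for Fosl2 (1.0e-04) and -1.04 ± 0.30 for Jun (0.0029). The Fosl2 call was lost without EC-Foxc-DKO 1 (-0.17), and Egr1 (-0.90, adjusted p = 0.033) and Ier2 (-0.83, 0.027) passed without Control 2. Without high doublet scores, a setting that also dropped plasma cells, all 10 genes passed as lower in crypt cells, beside 62.4% of all genes called. Crypt cells were also among the deepest cells, with medians of 29975 to 84030 UMIs. In Control 2 bottom enterocytes were deeper, at 32304 UMIs against 29975. The part of depth was not tested.

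Bottom enterocytes, which lie low on the villus, had high Atf3 (337.3, 187.0, 207.5 and 185.4 CPM, log2 difference 2.34 ± 0.26, adjusted p = 5.9e-10) and lower Junb (-1.09 ± 0.21, 2.9e-05) and Fosb (-1.27 ± 0.31, 4.9e-04). Jun passed at 0.61 ± 0.26 (0.041) and Ier2 at -1.11 ± 0.37 (0.0080), the latter failing without EC-Foxc-DKO 2 (-0.86, 0.059). Fosl2 passed without Control 2 (0.44) or EC-Foxc-DKO 1 (1.44). With 67.3% of all genes called in this type (32.8% higher and 34.5% lower), 5 of 10 is not above the background. Along the villus, Control 1 and EC-Foxc-DKO 1 had at least 10 cells of all 4 stages. Jun was 242.7, 581.2, 867.4 and 2580 CPM in crypt cells, bottom, middle and top enterocytes of Control 1 and 267.5, 524.9, 836.1 and 2301 CPM in those of EC-Foxc-DKO 1. It was thus higher at each step in both mice, and the top was 10.6 and 8.60 times the crypt. Fosl2 was likewise higher at each step, 11.3-fold and 13-fold from crypt to top. So were Atf3 (6.81-fold and 8.17-fold), Btg2 (6.59-fold and 5.46-fold), Fosb (12.9-fold and 5.90-fold) and Junb (3.31-fold and 2.39-fold). Fos was highest in middle enterocytes, at 1329 and 1257 CPM, and lower at the top, at 1242 and 914.8 CPM. Ier2 went the other way, with the top at 0.780 and 0.491 times the crypt, and Egr1 did not keep a direction (1.57 and 0.653 times). Jund had the smallest ratio above 1 that was alike in both mice (1.93-fold). With 1 mouse per genotype holding all stages no test was made of the whole course. In the mice that lacked top enterocytes, the steps from crypt to bottom went up for Jun, Atf3, Btg2, Fosl2, Fos, Junb and Jund in both Control 2 and EC-Foxc-DKO 2, while Fosb went down in Control 2 from 81.6 to 27.7 CPM.

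**Figure D3:**
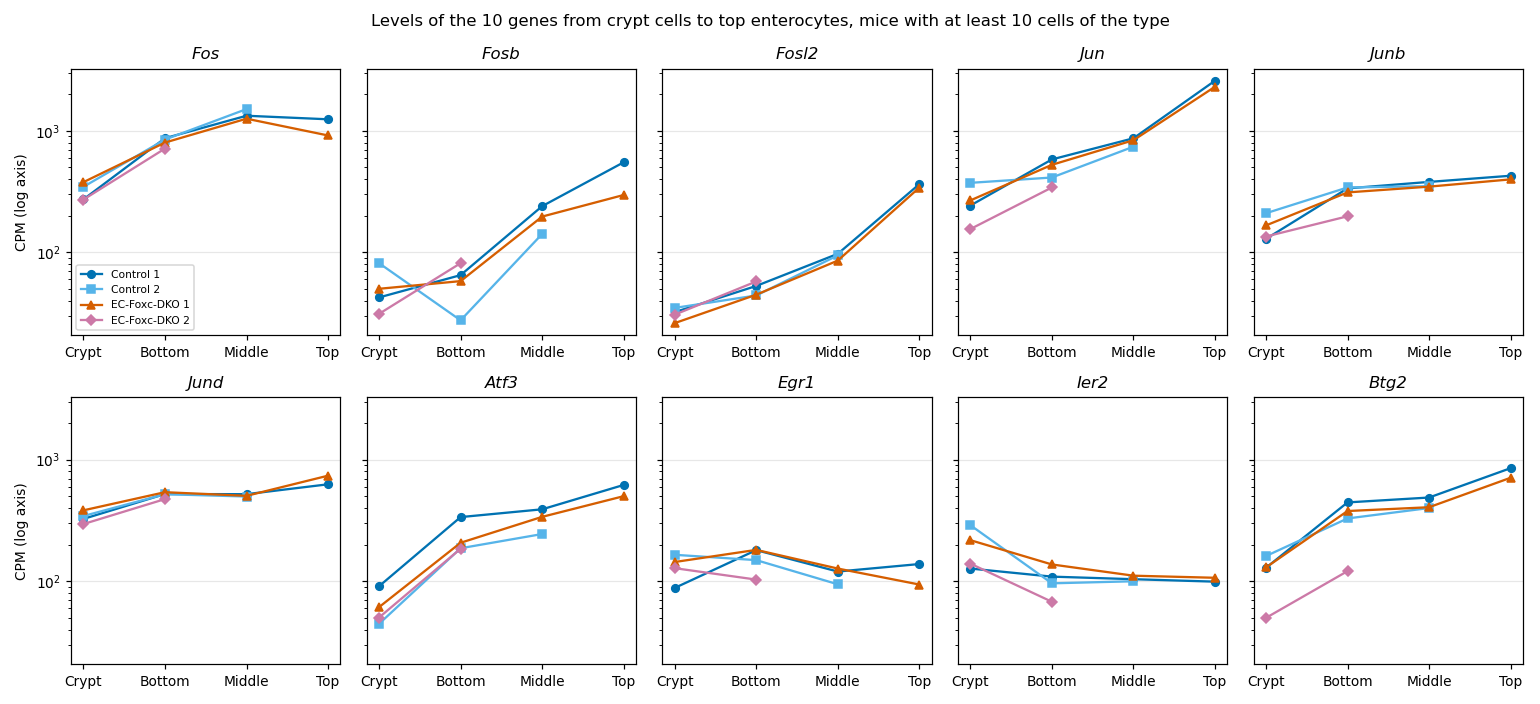
Each panel gives 1 gene's level in CPM on a log axis against the stage from crypt cell to bottom, middle and top enterocyte, with a line per mouse drawn over stages in which it had at least 10 cells. Jun, Fosl2 and Atf3 are higher at every step in Control 1 and EC-Foxc-DKO 1, and Ier2 is lower at each.

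Some cell types with too few cells for the tests stood high as well, and their values are descriptions. Neutrophils, reached by 30 cells in Control 1 and 20 in EC-Foxc-DKO 1, had the highest Junb of any type, at 3862 and 6891 CPM, and Btg2 at 2927 and 4502 CPM. Their Fos was 2298 and 4757 CPM, the latter within the range of enteric glia. Enteroendocrine cells, the hormone-secreting cells of the epithelium, had Egr1 at 1272, 879 and 1030 CPM in Control 1, EC-Foxc-DKO 1 and EC-Foxc-DKO 2, of which the first lay within the glial range, and all above every value of the other epithelial types with at least 10 cells. In smooth muscle and pericyte-like cells Fos was 2721 CPM in the 12 cells of Control 1 and 290.4 CPM in the 24 cells of EC-Foxc-DKO 1. In Control 1, 2 cells held 94.2% of the UMIs of the 10 genes, and both had high doublet scores. The median cell had 991 CPM of the 10 genes summed in Control 1 and 994 CPM in EC-Foxc-DKO 1. Lymphatic endothelial cells were scarce. The 10 cells of Control 2, with 62775 UMIs in all, had no UMI of Fos, Fosb, Fosl2 or Atf3, which allows up to 47.8 CPM of each, and the 5 cells of EC-Foxc-DKO 1 had 23 UMIs of Fos, all in 1 cell.

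Within a cell type the genes were not spread evenly over the cells. Cells with at least 1000 UMIs were ranked by the summed share of the 10 genes in their UMIs. In BECs 22 of 158 cells (13.9%, exact 95% interval 8.94% to 20.3%, counting error only) had more than 1% of their UMIs on these genes, and these held 72.2% of all UMIs of the 10 genes. By mouse they were 1 of 26, 6 of 29, 8 of 80 and 7 of 23 in Control 1, Control 2, EC-Foxc-DKO 1 and EC-Foxc-DKO 2. Each of the 4 mice thus had such cells, with a maximum of 26418, 20114, 21893 and 54655 CPM beside medians of 729, 819, 1130 and 4056 CPM. The median EC-Foxc-DKO 2 cell was also above those of the other mice. The cells above 1% had a median of 9 of the 10 genes detected against 3 in the rest. They were picked by the summed share of the same 10 genes. Their part of these UMIs and the number of genes detected in them follow in part from that choice. They had a median of 6795 UMIs against 4366, and 4.67% mitochondrial UMIs against 5.43%. The mice differed in depth. The medians were 6927 against 3986 UMIs in Control 1, 10683 against 4035 in Control 2 and 12215 against 4276 in EC-Foxc-DKO 1. In EC-Foxc-DKO 2 the cells above 1% were shallower, at 3617 against 5209. Of the 22, 1 had a high doublet score, and 10 BECs lay within 0.25 percentage points of the limit of 1%. The 16 of 158 BECs with the most of a gene held 75.6% of its summed level for Fos and 77.6% for Egr1. For Atf3 the share was 93.8%, and for Jund 48.2%. A UMI was found in 41.1% of these BECs for Fos, 31.0% for Egr1, 16.5% for Atf3 and 63.3% for Jund. With fewer cells holding a UMI, the top 16 hold more of the level, so these shares alone do not show uneven expression. The part of detection and depth in them was not tested.

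Enteric glia had more such cells, 37 of 89 (41.6%) above 1%, and these held 86.2% of the UMIs of the 10 genes. By mouse the share ranged from 37.8% in EC-Foxc-DKO 1 to 47.1% in EC-Foxc-DKO 2. Their medians were 9105, 2413, 2933 and 9964 CPM in Control 1, Control 2, EC-Foxc-DKO 1 and EC-Foxc-DKO 2, against 1149 CPM over all BECs. Macrophages had 125 of 358 cells (34.9%) above 1%, and here the mice differed: 36 of 88, 28 of 41, 49 of 127 and 12 of 102. The EC-Foxc-DKO 2 share, 11.8% (exact 95% interval 6.23% to 19.6%, counting error only), lay below the intervals of all the other mice. CD8 T cells (10.2%) and follicular B cells (11.9%) were graded instead, since the cells above 1% held 22.5% and 27.5% of the UMIs and the median cell already had 4483 and 4598 CPM of these genes. No crypt cell, bottom enterocyte or plasma cell passed 1%, of 218, 744 and 83.

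**Figure D4:**
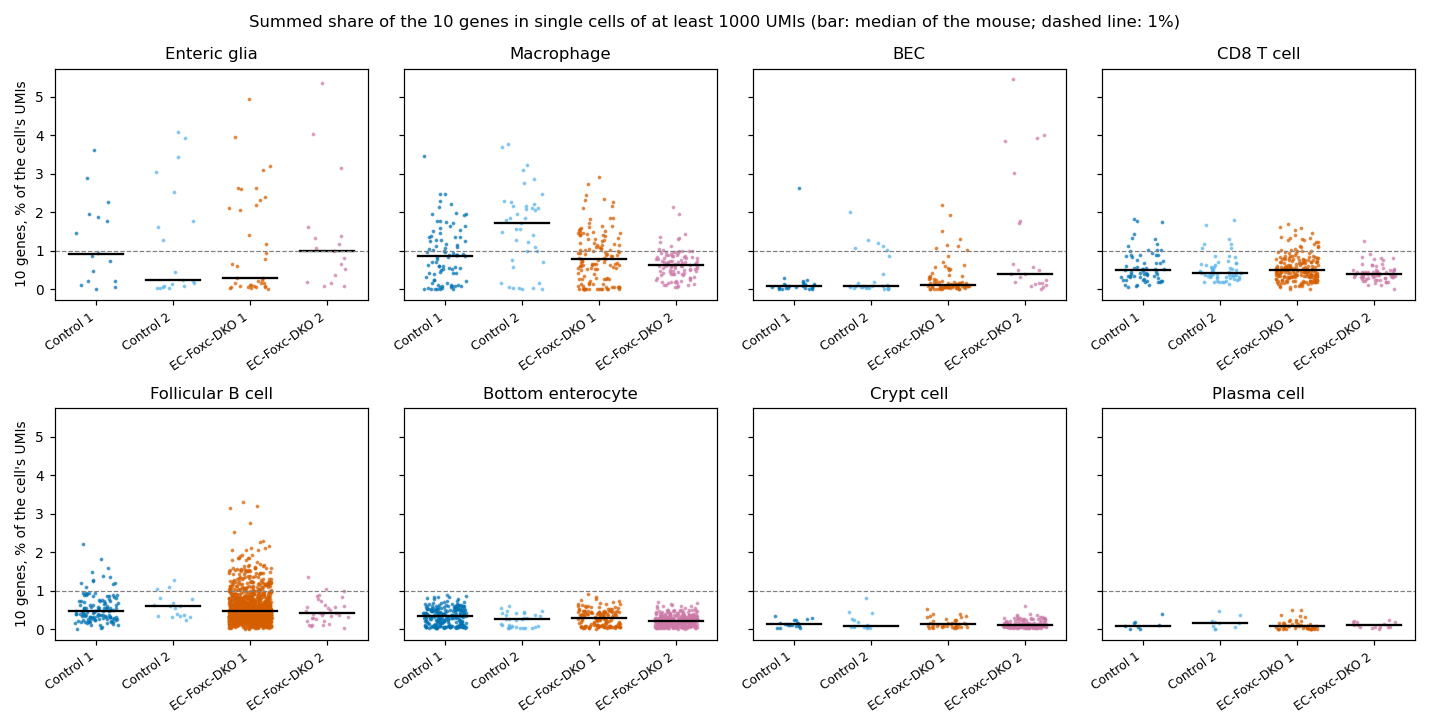
Each point is a cell of at least 1000 UMIs, placed by the share of its UMIs on the 10 genes in percent, by mouse and cell type; the bar is the median of the mouse and the dashed line marks 1%. In BECs 22 of 158 cells stand above the line over low medians, in enteric glia 37 of 89 do and the medians of Control 1 and EC-Foxc-DKO 2 lie just under it, in CD8 T and follicular B cells the points are graded, and crypt cells stay below 1%.

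Detection was set against depth, which differed between types. A UMI of Fos was found in 90.5% of bottom enterocytes and 40.0% of BECs, with median depths of 31353 and 4332 UMIs. After each cell was thinned to 1000 UMIs (12 BECs, 58 macrophages, 25 plasma cells and 6 or fewer of each other type were shallower and left out), Fos was found in 67.9% of macrophages, 57.2% of enteric glia, 45.2% of bottom enterocytes, 23.7% of BECs, 20.5% of crypt cells, 11.8% of plasma cells and 2.87% of lymphatic endothelial cells. The share in lymphatic cells, from 1 cell with a UMI, is given as the low end, at a median of 2963 UMIs. Junb was found in 92.6% of neutrophils, 70.3% of CD8 T cells and 69.4% of follicular B cells against 8.03% of plasma cells. Atf3 was at 0.593% in CD8 T cells and 0.957% in follicular B cells, beside 1.74% in lymphatic endothelial cells. The lymphatic share rests on 1 of 20 cells, so it sets no floor, and free RNA itself was not measured. Whether the low lymphocyte shares are expression was not tested.

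In BECs the 10 genes all had higher fitted levels in the mutant mice, but none passed the test. Fos was 584.8 and 998.6 CPM in Control 1 and Control 2 against 910.2 and 2243 CPM in the mutant mice, Junb was 403.3 and 722.2 against 833.8 and 1300 CPM, and Jund was 262.2 and 588.4 against 627.1 and 1232 CPM. For Junb, Jund, Fosb and Ier2 both mutant mice lay above both control mice, while Fos and the other 5 overlapped. Over all 3512 genes tested in BECs, 15.9% had both mutant mice above both control mice. The fitted log2 differences (EC-Foxc-DKO over Control) were 1.27 ± 0.65 for Egr1, 1.26 ± 0.53 for Fosb, 1.08 ± 0.43 for Jund, 1.01 ± 0.48 for Ier2, 0.96 ± 0.41 for Fos, 0.89 ± 0.35 for Junb, 0.85 ± 0.63 for Atf3, 0.54 ± 0.47 for Btg2, 0.53 ± 0.65 for Fosl2 and 0.20 ± 0.36 for Jun. Their median was 0.92 beside 0.00 for all genes. It was 0.26 without EC-Foxc-DKO 2, 0.59 without Control 1, 1.54 without Control 2, 1.39 without EC-Foxc-DKO 1 and 0.52 at a mitochondrial limit of 20%, where none of the 10 had an unadjusted p under 0.05. By edgeR's quasi-likelihood test every adjusted p was 0.999, and 0 of 3512 genes were called (0.0%). At an unadjusted p under 0.05 there were 96 genes (2.73%), Fos, Fosb, Junb and Jund among them. DESeq2 called 1 gene and none of the 10. With 2 mice against 2, an exact permutation test of 1 gene cannot go below p = 0.33.

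The order of the mice in BECs was much the same for each gene. EC-Foxc-DKO 2 was the highest mouse for 9 of the 10, beside 33.3% of all genes, and Control 1 the lowest for 9, beside 26.1%. The fits without 1 mouse, which set 1 mouse against 2 and assume that the lone mouse varies like the others, moved accordingly. Without Control 2, Atf3 (2.80), Egr1 (2.21), Ier2 (2.1) and Jund (1.79) passed, beside 1.19% of all genes, and without EC-Foxc-DKO 1, Fos (1.44), Fosb (1.91) and Egr1 (1.99) did, beside 0.885%. No gene of the 10 passed without Control 1 or without EC-Foxc-DKO 2, and 4 turned sign: Jun (-0.23) and Btg2 (-0.030) without Control 1, Fosl2 (-0.41) and Egr1 (-0.17) without EC-Foxc-DKO 2. With no filter on low counts Egr1 passed (1.2, adjusted p = 0.047). Other values moved with these mice. The BECs of EC-Foxc-DKO 2 carried 2430 CPM of the 8 CD8 T cell markers against 20.2, 4.46 and 380 CPM in Control 1, Control 2 and EC-Foxc-DKO 1, those of Control 1 carried 2030 CPM of the 9 macrophage markers against 13.4 to 27.0 CPM, and those of EC-Foxc-DKO 1 carried 3493 CPM of hemoglobin and other erythroid genes. Glial markers were at 17.0 CPM or less, with 5 or more of the 7 at 0 in each mouse. When cells of up to 20% mitochondrial UMIs were clustered, BECs with up to 5% had 5698 CPM of the 10 genes summed in EC-Foxc-DKO 1 against 1883 CPM in those with 5% to 10%, and in Control 1 the values were 2797 and 981 CPM. The part of these in the mouse order was not tested.

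**Figure D5:**
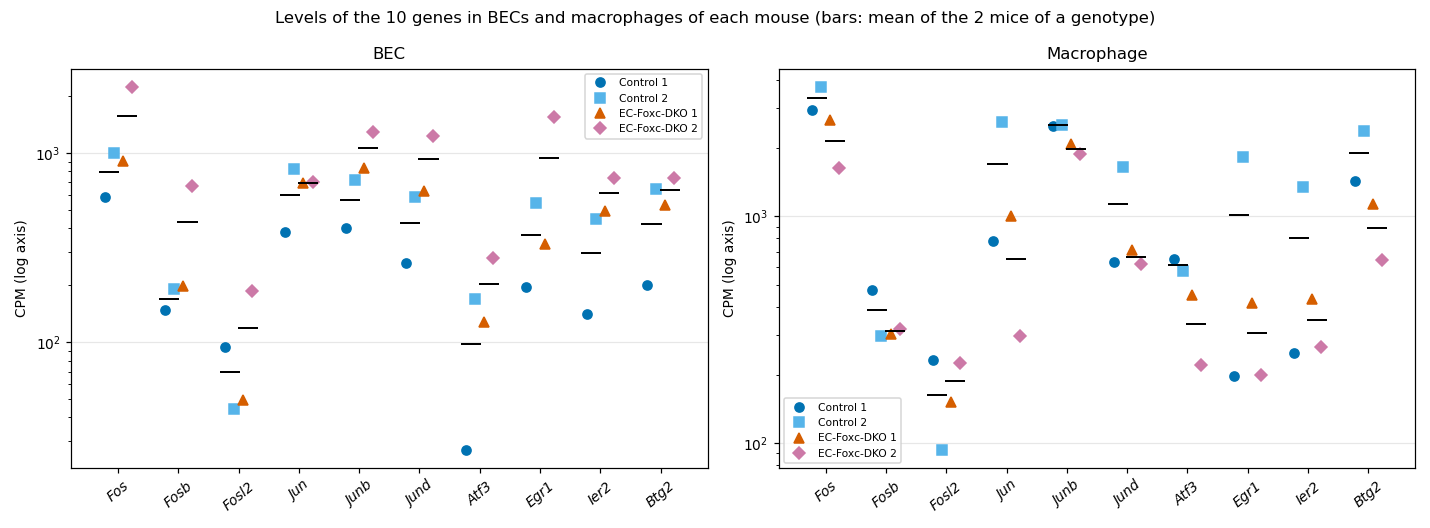
The left panel gives the level of each gene in BECs and the right panel in macrophages, in CPM on a log axis, with a symbol per mouse and bars at the mean of the 2 mice of a genotype. In BECs EC-Foxc-DKO 2 is the highest symbol for 9 of 10 genes, and in macrophages Control 2 is the highest for 7; no difference between genotypes passed the test.

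The genotype difference of BECs was set against that of the other 7 types in 1 fit with mouse as a covariate. All 10 genes had a positive difference of differences, with a median of 1.31, and none passed (lowest adjusted p = 0.817, for Jund at 1.29 ± 0.41), while 9 of 8701 genes did (0.103%). At an unadjusted p under 0.05 there were 5 of the 10, namely Jund, Btg2, Junb, Fosb and Fos, beside 4.48% of all genes. The median was 0.56 without EC-Foxc-DKO 2, 0.75 without Control 1 and 0.67 at a mitochondrial limit of 20%, with 0, 0 and 1 of the 10 at an unadjusted p under 0.05. Fosl2, at 0.33 ± 0.55, turned sign without Control 2 (-0.028) and without EC-Foxc-DKO 2 (-0.31).

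In macrophages 9 of the 10 had lower fitted levels in the mutant mice, with a median of -0.85, and none passed. Without Control 2 the median was -0.35, with 3 genes positive, without EC-Foxc-DKO 2 it was -0.56 and without EC-Foxc-DKO 1 -1.26. Btg2 was 1432 and 2385 CPM in Control 1 and Control 2 against 1137 and 639.6 CPM in the mutant mice, without overlap (log2 difference -1.13 ± 0.42, unadjusted p = 0.028, edgeR adjusted p = 1.00, with 2.78% of all genes under an unadjusted p of 0.05). Fos (2949 and 3735 against 2665 and 1636 CPM), Atf3 and Junb were likewise without overlap, 4 genes in all, beside 13.7% of all genes. Control 2 was the highest mouse for 7 genes (33.0% of all genes) and EC-Foxc-DKO 2 the lowest for 6 (26.5%). Egr1 shows how far 1 mouse carried the values, again with a lone control mouse assumed to vary like the others: its difference was -1.74 ± 0.89 over the 4 mice, -2.57 without Control 1 (adjusted p = 0.033) and 0.61 without Control 2. With no filter on low counts Egr1 passed as well (-1.62, adjusted p = 0.035). Macrophages of Control 2 had 24534 CPM of the 9 macrophage markers against 12215 to 16050 CPM in the other mice. The part of this in the result was not tested.

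In the other 6 types no member passed either. The number that passed the filter on low counts was 10 in bottom enterocytes and crypt cells, 9 in CD8 T cells and enteric glia, 8 in follicular B cells and 6 in plasma cells. The medians of their log2 differences were -0.17, -0.22, -0.15, -0.09, -0.01 and -1.10. In CD8 T cells Fosb was 266.7 and 181.6 CPM against 140.0 and 28.5 CPM (-1.13 ± 0.45, unadjusted p = 0.030, edgeR adjusted p = 1.00), and it passed without EC-Foxc-DKO 1 (-2.94), as did Jun (-2.14). Fosb also passed with no filter on low counts (-1.1, adjusted p = 0.038). Without the same mouse Btg2 (-1.60) and Junb (-0.68) passed in bottom enterocytes and Egr1 (1.69) in follicular B cells, and without Control 1 Ier2 (1.98) passed in enteric glia. Each of these rests on 1 mouse in an arm, which is assumed to vary like the others. In plasma cells Ier2 had the lowest p (-1.83 ± 0.57, edgeR unadjusted p = 0.017, adjusted p = 0.488), from 110.7 and 87.3 CPM to 53.5 and 19.1 CPM. Fos had the largest difference there (-1.84 ± 0.96, edgeR unadjusted p = 0.0999), with Control 1 the highest mouse at 996.3 CPM. The share of all genes called was 0.0% in each type but plasma cells (0.0835%), and an unadjusted p under 0.05 was found for 3.07% in bottom enterocytes, 2.48% in crypt cells, 2.06% in CD8 T cells, 2.31% in enteric glia, 1.96% in follicular B cells and 9.10% in plasma cells.

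Other genes of the same pathway were counted in the same way. Over all genes the higher share was 29.8% in macrophages, 19.6% in enteric glia and 26.2% in BECs. It was 27.4% in both CD8 T cells and follicular B cells. The lower share was 28% in crypt cells, 11.2% in macrophages and 11.5% in enteric glia. In BECs, CD8 T cells and follicular B cells the lower share was 17.9%, 18.8% and 17.5%. Of 26 other immediate early genes 23 were tested. In macrophages 19 were higher and none lower, led by Ier3, an early response gene known for survival signalling (7.76 ± 0.24), Rhob, Zfp36, Mcl1 and Nfkbiz. In enteric glia 9 were higher and none lower, led by the matricellular genes Ccn1 (6.46 ± 0.44) and Ccn2 (7.0 ± 0.63) and by Socs3 (3.28 ± 0.35). Glial Ccn2 was 193.9, 175.4, 128.3 and 0 CPM after TMM scaling in Control 1, Control 2, EC-Foxc-DKO 1 and EC-Foxc-DKO 2. Follicular B cells had 11 higher and 3 lower, and CD8 T cells 9 higher and 6 lower. In crypt cells none was higher and 17 were lower, led by Klf2 (-5.54 ± 0.49). BECs had 9 higher and 1 lower, led by the flow-responsive factors Klf2 (3.77 ± 0.25) and Klf4 (2.88 ± 0.27) and by Ier3 (5.45 ± 0.33). Among 11 tested phosphatases and feedback inhibitors of the kinase cascade 6 were higher and 1 lower in macrophages, with Dusp1 at 3.91 ± 0.19. Enteric glia had 5 higher and 1 lower, with Spry2 at 4.55 ± 0.42. BECs had 4 higher and 1 lower, with Spry4 at 6.45 ± 0.54. There were 5 higher and 3 lower in CD8 T cells and 2 higher and 1 lower in follicular B cells. In crypt cells none was higher and 5 were lower. Of 13 tested AP-1 and ATF relatives 8 were higher in macrophages, Batf (4.70 ± 0.40) among them, and 3 in enteric glia, with none lower in either. BECs had 2 higher and 2 lower. CD8 T cells had 4 higher and 5 lower, and follicular B cells 4 higher and 3 lower. Of 13 upstream kinases and factors, 7 were higher and 2 lower in CD8 T cells, and 6 higher and 1 lower in follicular B cells. Enteric glia had 1 higher and 2 lower. BECs had 4 higher and 2 lower, with the ternary complex factor Elk3 at 4.45 ± 0.22. Macrophages had 4 higher and 1 lower, with the kinase Map3k8 at 3.80 ± 0.38. No gene of these lists passed between genotypes in any type. Genes of these lists that also served as markers helped to name the types.

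Over the 57 sums of a type in a mouse, from 19 types, the genes most like the mean of the 10 were Nfkbiz (Pearson r = 0.80), Zfp36 (0.77) and Dusp1 (0.76), each of them itself an early response gene, followed by Gm26532, Litaf, Ndst1, Sbno2, Tmem127, Bach1 and Dusp6 (0.69 to 0.66). The sums share libraries and depths, and these values are descriptions over 6573 genes ranked. After each type's mean was taken away, which leaves differences between mice, Adgrl4 (0.67), Zfp36 (0.65), Nfkbia (0.64) and Nfkbiz (0.62) led. Among the 10 themselves, Junb and Btg2 (0.85), Jun and Atf3 (0.82) and Fos and Fosb (0.81) were most alike, and Junb and Atf3 least (0.16).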

How the data were processed

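Single-cell 3′ libraries (10x Chromium v3.1) were made from the distal jejunum of 4 mice, 2 per genotype, each mouse giving 1 library and counting as 1 replicate. In the genotype fits of a single type, p-values measure the spread between mice. The fits over all types held mouse as a covariate. Their p-values measure the spread left over types and mice after each mouse's own shift is removed. The authors deposited raw UMI counts per gene and barcode, 1 matrix per mouse, made with Cell Ranger 4.0.0 on mm10 per the labels, with Cre added to the reference; the paper's methods name another Cell Ranger version. The deposited counts were used as they stand. Intronic reads, strand handling and multi-mapped reads are not described in the sources used here.

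The study's clustering settings were followed (mitochondrial limit 10% over 13 genes, gene mean of at least 0.001, 10000 UMIs per cell, 15 principal components, 15 neighbours, Leiden resolution 0.5, no batch correction; scanpy 1.11.5), except that the 10 genes and other immediate early genes were left out, which removed 17 of 2923 variable genes. Of the 23 clusters, 1 with markers of both stromal cells and pericytes was split in a second round, and the resulting 25 were named by markers, except 4 that met no name; the thresholds of that rule were set after the clusters were seen. Scrublet marked 13 cells (0.23%), which shows that its automatic threshold did not work here, so doublets were kept and an alternative removed the 292 cells with the highest scores. UMIs were summed per mouse and type and tested with edgeR 4.0.16 (quasi-likelihood, TMM, filterByExpr, Benjamini-Hochberg over all genes tested, two-sided); DESeq2 1.42.0 was an alternative. Levels in CPM are sums without TMM factors. The 10 genes and the gene lists were chosen with earlier results of these data known. All 10 genes were named in every comparison, and of other lists at most the 5 called genes with the lowest p per comparison. Likeness was Pearson's r of log2(CPM + 10) with the mean of the 10, among genes with a mean of at least 20 CPM. The tests were checked on simulated counts: in the BEC genotype comparison over 3512 genes, 24.1% of 2-fold, 83.3% of 4-fold and 98.1% of 8-fold changes were called. These simulated counts had the spread of the trend over all genes, and the own spread of each of the 10 genes was not used. The recovered shares need not hold for genes that vary more than the trend. Intervals and limits from counts cover counting error only. UMIs of 3′ ends are not scaled by length, so levels were not compared between genes.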

Additional observations from a re-analysis of the deposited data

Results flagged for a closer look

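For 9 of 8701 genes, none of them among the 10, the genotype difference in BECs differed from that in the other types (edgeR, adjusted p under 0.05, 1 higher and 8 lower). Without Control 1 there were 0 such genes, without Control 2 there were 21, without EC-Foxc-DKO 1 there were 5 and without EC-Foxc-DKO 2 there were 2.

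The barcodes left out for more than 10% mitochondrial UMIs also carried the 10 genes. Their summed level was 4074, 2333, 3803 and 3280 CPM in Control 1, Control 2, EC-Foxc-DKO 1 and EC-Foxc-DKO 2, beside 4493, 5024, 4284 and 2559 CPM in the kept cells, so it was lower than in kept cells in 3 mice and higher in EC-Foxc-DKO 2. These barcodes were given no cell type, and no comparison between genotypes was made on them.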

How the results depend on the processing

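Of the 50 calls of the 10 genes between types, 31 held under every alternative in which they were compared. The other 19 lost the call under at least 1, and none turned. At a mitochondrial limit of 20% and without high doublet scores, where plasma cells dropped out, 44 of the 50 were compared. With macrophages of the deeper cluster alone 48 were compared. The number of calls was 50 over all mice and 42 to 50 without 1 mouse. Over all genes 30652 comparisons were called, and 20221 to 30120 without 1 mouse, the lowest without EC-Foxc-DKO 1. Between genotypes 0 genes were called in BECs and 1 in the other types. DESeq2 called 1 and 15, no filter on low counts 63 and 485, and leaving out 1 mouse 26 to 43 and 57 to 1022. A mitochondrial limit of 20% and the removal of high doublet scores each gave 0 in the other types, where plasma cells then dropped out. With the replicate number as a block, there were 2 genes in BECs and 4 in the other types, and no call of the 10. The deviations of same-numbered mice correlated from -0.33 to 0.0069 over the types (2 pairs), so the mice share only a number. Because some were under -0.1, the crossed numbers were also fitted, an alternative chosen after seeing the data, as were the macrophages of the deeper cluster alone; crossing gave 2 and 354 genes, with 0 of the 10 in BECs and Btg2 (-0.83) in bottom enterocytes. The difference of differences called 9 genes, 0 with DESeq2, 34 without the filter, 0 without high doublet scores and 0 to 21 without 1 mouse. Of the 10 genes, 0 were called in BECs between genotypes, 1 with no filter and 0 to 4 without 1 mouse. Signs turned for uncalled values. Without 1 mouse, values between genotypes in BECs ran from -0.41 to 1.43 for Fosl2, -0.23 to 0.85 for Jun, -0.17 to 2.21 for Egr1 and -0.030 to 1.63 for Btg2, in the difference of differences from -0.31 to 1.03 for Fosl2, and between genotypes in macrophages from -2.57 to 0.61 for Egr1. In BECs against other types, without 1 mouse, Fos ran from -0.57 to 0.38, Junb from -0.42 to 0.12 and Btg2 from -0.54 to 0.18. There Fos was also -0.14 with no filter, -0.42 at 20% mitochondrial and -0.042 without high doublet scores, Junb was 0.061 with DESeq2 and 0.062 with RLE, and Btg2 0.038 and 0.026. The cause was not tested, other than that fewer mice and, without the filter, more genes entered. With a pseudocount of 1 CPM, 4 of the 10 genes most like the mean after removal of type means were shared with those at 10 CPM. Small libraries limit the precision: 3 UMIs are worth up to 25.5 CPM in BECs.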
